A study of Mus musculus with 11 samples.

Results

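Markers of hepatic stellate cells and myofibroblasts were followed across 3 genotypes of mouse liver. The 10 genes were taken from a list of symbols, and each was read from the 1 probe set annotated to that symbol alone, among 19938 genes measured. They were divided into sets named activated and quiescent markers. These names are labels of the lists, and the state of the cells was not measured. The activated markers were Acta2, Tagln, Itga8 and Des, and the quiescent markers were Lrat, Reln, Rgs5, Hand2, Ngfr and Cygb. Des is found in rodent stellate cells of both states.

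RNA came from liver of male mice at 14 months of age. The groups were Mdr2-KO/IL6-KO (n = 4 arrays), in which both Mdr2 and interleukin 6 are knocked out, Mdr2-KO (n = 4) and wild type (n = 3). The tissue of both knockout groups was free of tumour. The strain was labelled C57BL/6 for the wild-type arrays and was not labelled sample by sample for the knockouts, although the design text of the series names C57BL/6. The labels do not say in which cells the genes were deleted. Mdr2 is the canalicular phospholipid transporter encoded by Abcb4, whose loss injures bile ducts and leads to scarring around them. The Abcb4 probe set read 8.09 ± 0.204 in Mdr2-KO/IL6-KO, 7.74 ± 0.194 in Mdr2-KO and 9.83 ± 0.105 in wild-type livers on the log2 scale (SD, n = 4, 4 and 3). On the first principal component of all genes the wild-type arrays lay apart from the knockout arrays, and on the second Mdr2-KO replicates 2 and 3 lay farthest apart.

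Stellate cells lie between hepatocytes and the sinusoidal endothelium and store vitamin A as retinyl esters. In an injured liver they lose these stores and turn into contractile, matrix-producing myofibroblasts. Portal fibroblasts around the bile ducts are a second source of myofibroblasts in bile duct disease. In total liver RNA, fewer cells of a type and less RNA per cell cannot be told apart.

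Promoter windows are given for Itga8 and Rgs5, which passed the test in at least 1 comparison, and for Acta2, which passed in none, so that genes that passed and one that did not stand side by side. A RefSeq window from 250 bases before to 50 bases after the annotated start on GRCm38.p6 was used for 8 of the 10 genes, all but Tagln and Cygb. Those of Itga8, at chr2:12301895-12302194 (minus strand), Rgs5, at chr1:169655251-169655550 (plus strand), and Acta2, at chr19:34255324-34255623 (minus strand), read as follows, 5′ to 3′ on the strand of the gene, with matches to any searched motif in capitals.
Itga8: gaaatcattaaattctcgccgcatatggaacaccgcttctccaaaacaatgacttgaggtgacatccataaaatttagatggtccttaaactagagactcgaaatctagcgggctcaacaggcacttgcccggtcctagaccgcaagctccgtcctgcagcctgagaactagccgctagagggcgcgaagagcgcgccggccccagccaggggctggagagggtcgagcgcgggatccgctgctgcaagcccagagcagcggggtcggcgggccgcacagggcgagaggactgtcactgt
Rgs5: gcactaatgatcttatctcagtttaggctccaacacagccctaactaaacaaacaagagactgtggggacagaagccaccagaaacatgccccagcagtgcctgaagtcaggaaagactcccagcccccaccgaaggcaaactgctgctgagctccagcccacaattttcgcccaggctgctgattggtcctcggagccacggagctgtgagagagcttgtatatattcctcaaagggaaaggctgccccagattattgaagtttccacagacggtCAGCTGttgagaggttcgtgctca
Acta2: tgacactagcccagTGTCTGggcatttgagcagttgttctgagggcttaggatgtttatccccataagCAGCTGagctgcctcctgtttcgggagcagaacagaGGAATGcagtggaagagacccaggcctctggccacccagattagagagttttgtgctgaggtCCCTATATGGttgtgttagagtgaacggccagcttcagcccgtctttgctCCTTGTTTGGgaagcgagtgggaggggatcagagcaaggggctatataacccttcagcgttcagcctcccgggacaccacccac

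The motifs searched on both strands were the TATA box (TATAAA), the GC box (GGGCGG), the TEAD motif (GGAATG), the AP-1 motif (TGANTCA), the E-box (CAGCTG), a SMAD motif (CAGACA), the CArG box bound by serum response factor, and the CArG box with 1 base off in its A/T core. The Acta2 window held 2 CArG boxes with 1 base off, which begin at positions -84 and -34 from the annotated start, and 1 match each to the TEAD motif, the E-box and the SMAD motif. The Rgs5 window held 1 E-box, and the Itga8 window held no match. CArG boxes with 1 base off were found in 8.5% of all 32851 windows and exact ones in 1.63%. The E-box was in 16.3%, the TEAD motif in 14.7% and the SMAD motif in 21.0%. Over the 8 member windows, the CArG box with 1 base off was in 2 (Acta2 and Lrat) and the exact one in 0. The E-box was in 4 (Des, Rgs5, Ngfr and Acta2), the TEAD motif in 2 (Lrat and Acta2) and the SMAD motif in 2 (Des and Acta2). The GC box, in 35.7% of all windows, was in 5 (Des, Lrat, Reln, Hand2 and Ngfr). The exact TATA box string TATAAA (13.6%) and the AP-1 motif (7.81%) were in none of the 8. Other forms of the TATA box were not searched, such as the tatataa in the Acta2 window. A match describes the letters only and does not show binding.

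Of the 4 activated markers, Itga8 alone stood clearly higher in both knockout groups. Itga8 encodes the alpha8 integrin subunit, which pairs with the beta1 subunit on stellate cells and myofibroblasts and binds matrix proteins such as nephronectin. By array its log2 level was 7.70, 7.86, 7.87 and 7.69 in Mdr2-KO/IL6-KO, 7.99, 7.31, 7.35 and 7.45 in Mdr2-KO, and 5.92, 5.60 and 5.82 in wild-type livers. Every knockout array lay above every wild-type array, and the highest reading of all was Mdr2-KO replicate 1. Itga8 rose 4.01-fold in Mdr2-KO/IL6-KO against wild type (log2 change 2.0 ± 0.146 SE, limma adjusted p = 6.75e-06) and 3.35-fold in Mdr2-KO against wild type (1.75 ± 0.146 SE, adjusted p = 4.57e-05). It ranked 9 and 7 by p among the 19938 genes in these comparisons. Both calls held in each of 19 alternative analyses, with an adjusted p of at most 0.000297 and 0.00196.

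Acta2, which encodes the alpha smooth muscle actin used to stain myofibroblasts, did not pass in any comparison. It read 6.45, 6.62, 6.53 and 6.28 in Mdr2-KO/IL6-KO, 6.25, 6.59, 6.78 and 6.61 in Mdr2-KO, and 6.75, 6.33 and 6.18 in wild-type livers. The 3 groups overlapped, and only Mdr2-KO replicate 3 lay above wild-type replicate 1. The log2 change was 0.14 in Mdr2-KO against wild type, with a 95% interval of -0.18 to 0.46 (adjusted p = 0.878), and 0.05 in Mdr2-KO/IL6-KO against wild type, from -0.27 to 0.37 (adjusted p = 0.936). These intervals leave room for a rise of up to 1.37-fold and 1.29-fold. Without wild-type replicate 1 the Mdr2-KO change was 0.30, the highest among the alternatives.

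Tagln, the actin-binding protein transgelin of smooth muscle and myofibroblasts, passed in 1 of the 3 comparisons. It read 6.02, 6.15, 6.30 and 6.07 in Mdr2-KO/IL6-KO, 5.78, 6.18, 5.99 and 6.03 in Mdr2-KO, and 5.84, 5.36 and 5.70 in wild-type livers. All Mdr2-KO/IL6-KO arrays lay above the wild-type arrays, while 1 Mdr2-KO array, replicate 1, lay below the highest wild-type array. The change passed in Mdr2-KO/IL6-KO against wild type (1.41-fold, log2 change 0.50 ± 0.125 SE, adjusted p = 0.0405) and did not in Mdr2-KO against wild type (log2 change 0.36 ± 0.125 SE, adjusted p = 0.286). The Tagln call ended without any 1 of 7 arrays (replicate 1, 2, 3 or 4 of Mdr2-KO/IL6-KO, or replicate 4 of Mdr2-KO, or replicate 2 or 3 of wild type), with an adjusted p of up to 0.172, without wild-type replicate 2.

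Des encodes desmin, an intermediate filament protein of muscle and stellate cells. Its log2 level was 5.44, 5.48, 5.53 and 5.39 in Mdr2-KO/IL6-KO, 5.04, 5.34, 5.63 and 5.21 in Mdr2-KO, and 5.06, 5.27 and 5.27 in wild-type livers. The Mdr2-KO/IL6-KO arrays lay just above the wild-type arrays, whereas the Mdr2-KO arrays spread on both sides of them. Neither change passed (log2 change 0.26 in Mdr2-KO/IL6-KO against wild type, 95% interval -0.0029 to 0.52, adjusted p = 0.331, and 0.10 in Mdr2-KO against wild type, -0.16 to 0.37, adjusted p = 0.892). Des was the 1 member dimmer than the median gene.

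Of the 6 quiescent markers none passed downward. Rgs5, a regulator that shortens G protein signals and is also known from pericytes, lay above wild type on every knockout array. By array it read 7.36, 7.34, 7.32 and 7.15 in Mdr2-KO/IL6-KO, 7.03, 6.81, 7.68 and 7.71 in Mdr2-KO, and 6.70, 6.50 and 6.47 in wild-type livers. The Mdr2-KO arrays formed a low pair and a high pair around the narrow Mdr2-KO/IL6-KO group. The change in Mdr2-KO/IL6-KO against wild type passed (1.67-fold, log2 change 0.74 ± 0.186 SE, adjusted p = 0.0420). That in Mdr2-KO against wild type was as large but did not pass (1.68-fold, log2 change 0.75 ± 0.186 SE, adjusted p = 0.0808). It passed without Mdr2-KO replicate 2 (log2 change 0.91, adjusted p = 0.0101), and without Mdr2-KO replicates 2 and 3 together (0.81, adjusted p = 0.0485). The Mdr2-KO/IL6-KO call ended without any single wild-type or Mdr2-KO/IL6-KO array, with an adjusted p of up to 0.147, without wild-type replicate 3.

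Cygb encodes cytoglobin, a haem protein found in the liver in stellate cells. It read 7.62, 7.72, 8.0 and 7.64 in Mdr2-KO/IL6-KO, 7.84, 7.53, 7.51 and 7.62 in Mdr2-KO, and 7.37, 7.16 and 7.31 in wild-type livers. All knockout arrays lay above all wild-type arrays. Cygb rose 1.38-fold in Mdr2-KO/IL6-KO against wild type (log2 change 0.46 ± 0.114 SE, adjusted p = 0.0360), and the change of 0.34 ± 0.114 SE in Mdr2-KO against wild type did not pass (adjusted p = 0.242). The Cygb call ended without any 1 of 6 arrays (replicate 2 or 3 of Mdr2-KO/IL6-KO, or replicate 4 of Mdr2-KO, or replicate 1, 2 or 3 of wild type), with an adjusted p of up to 0.145, without wild-type replicate 2.

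Lrat makes the retinyl esters that fill quiescent stellate cells, and it did not pass in any comparison. It read 7.01, 7.07, 7.12 and 7.22 in Mdr2-KO/IL6-KO, 7.04, 6.73, 7.06 and 7.02 in Mdr2-KO, and 7.03, 7.01 and 6.92 in wild-type livers. The groups overlapped, and Mdr2-KO replicate 2 was the lowest array. The change was -0.03 in Mdr2-KO against wild type (95% interval -0.24 to 0.18, adjusted p = 0.976) and 0.12 in Mdr2-KO/IL6-KO against wild type (-0.09 to 0.33, adjusted p = 0.669). The lower bound in Mdr2-KO is a level 0.850 times that of wild type, so a larger loss of Lrat lies outside this interval.

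Reln, Hand2 and Ngfr did not pass either. Reln encodes reelin, a secreted matrix glycoprotein that stellate cells make in the liver. Its log2 level was 8.45 ± 0.148 in Mdr2-KO/IL6-KO, 8.47 ± 0.165 in Mdr2-KO and 8.56 ± 0.149 in wild-type livers (SD, n = 4, 4 and 3), with overlapping arrays. Reln lies on mouse chromosome 5 between Abcb4 and Il6, the targeted genes. Hand2, a transcription factor of the stellate lineage, read 6.18 ± 0.108, 6.11 ± 0.144 and 6.12 ± 0.0238 in the same groups. Ngfr, the p75 neurotrophin receptor, read 6.01 ± 0.114, 5.88 ± 0.182 and 6.08 ± 0.0687. The largest of their changes was that of Ngfr in Mdr2-KO against wild type, -0.21 (95% interval -0.44 to 0.02, adjusted p = 0.578).

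**Figure D1:**
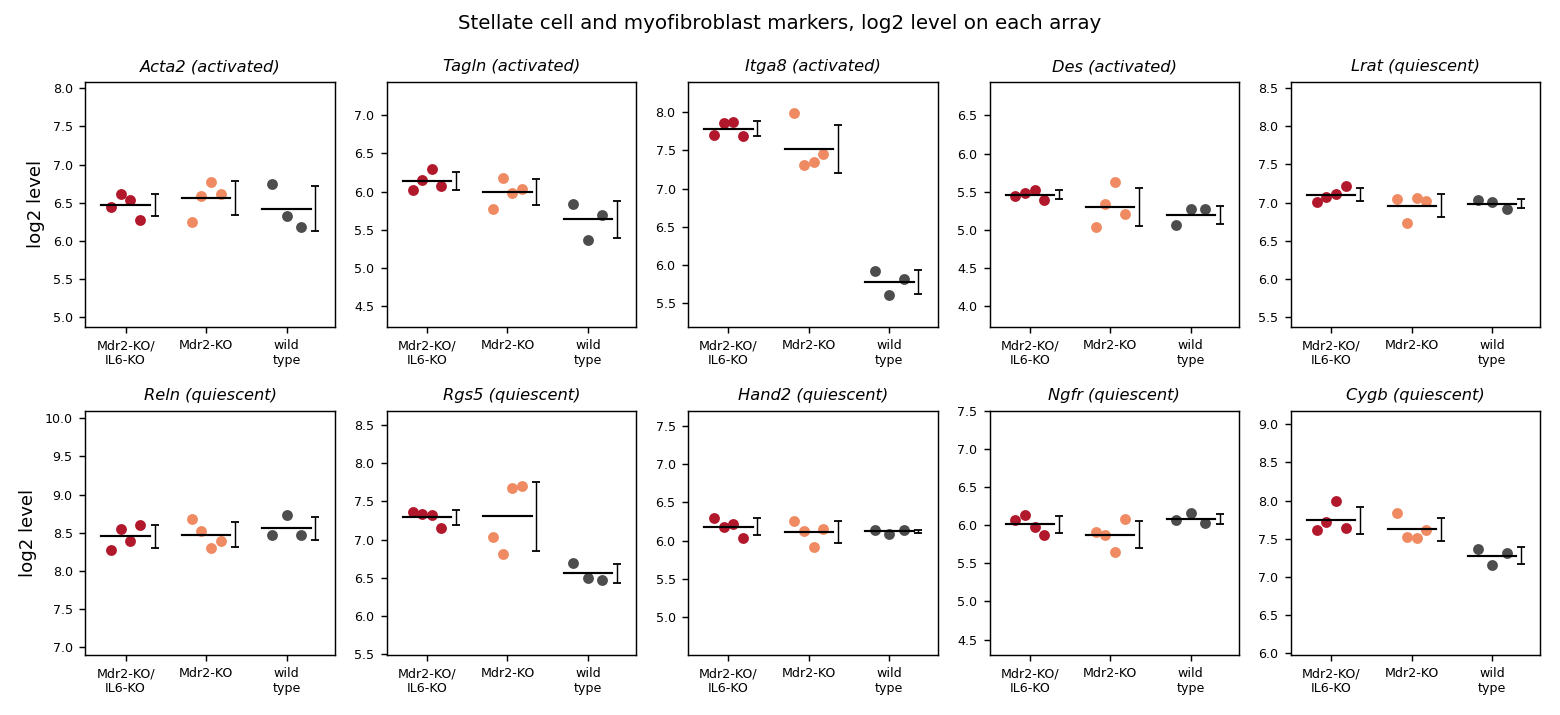
Log2 level (vertical axis, 3.2 log2 units in every panel) of each marker in Mdr2-KO/IL6-KO, Mdr2-KO and wild-type livers. Points are arrays, lines are group means and bars are 1 SD; Itga8 shows the widest gap, with knockout arrays from 7.31 to 7.99 and wild-type arrays from 5.60 to 5.92.

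Counted together, 1 of 4 activated and 0 of 6 quiescent markers passed in Mdr2-KO against wild type, where 1.26% of all genes passed, 0.948% upward and 0.316% downward. At an unadjusted p under 0.05 there were 2 of each group, namely Itga8, Tagln, Rgs5 and Cygb, against 9.79% of all genes. In Mdr2-KO/IL6-KO against wild type 2 of 4 activated and 2 of 6 quiescent markers passed, all upward, where 4.19% of all genes passed, 2.91% upward and 1.28% downward. The arrays of the groups did not overlap for 3 of the 10 members in Mdr2-KO against wild type, against 9.13% of all genes, and for 5 of 10 in Mdr2-KO/IL6-KO against wild type, against 16.3%. The median change of the activated markers was 0.25 and 0.38 in these comparisons and that of the quiescent markers -0.02 and 0.09, beside a median over all genes of -0.01 and -0.0006. Both comparisons share the wild-type arrays. Passed or not, the estimated change of all 4 activated markers was above 0 in both comparisons. Of the 6 quiescent markers it was above 0 for 2 and below for 4 in Mdr2-KO, and above 0 for 4 and below for 2 in Mdr2-KO/IL6-KO. The difference between the activated and quiescent markers was not tested. Because the members were chosen with earlier results of these data known, the counts beside the shares of all genes are descriptions only.

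No marker passed between livers without both Mdr2 and interleukin 6 and livers without Mdr2 alone. In Mdr2-KO/IL6-KO against Mdr2-KO the limma test called 0 members, and 0 reached an unadjusted p under 0.05, where 0.00502% and 4.82% of all genes did. Itga8 was closest, at a log2 change of 0.26 (95% interval -0.03 to 0.55, adjusted p = 0.9995), which allows a level up to 1.46 times that of Mdr2-KO. The widest interval was that of Rgs5, -0.38 to 0.36 around a change of -0.01. For Acta2 the change was -0.09 (-0.38 to 0.21), for Tagln 0.14 (-0.11 to 0.39), for Lrat 0.14 (-0.05 to 0.34) and for Cygb 0.12 (-0.11 to 0.35). Arrays overlapped between the 2 knockout groups for every member, against 2.51% of all genes whose arrays did not overlap. A change of the size seen for Itga8 against wild type lies outside all 10 intervals, and the 10 intervals together run from 0.766 to 1.46 times the Mdr2-KO level.

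**Figure D2:**
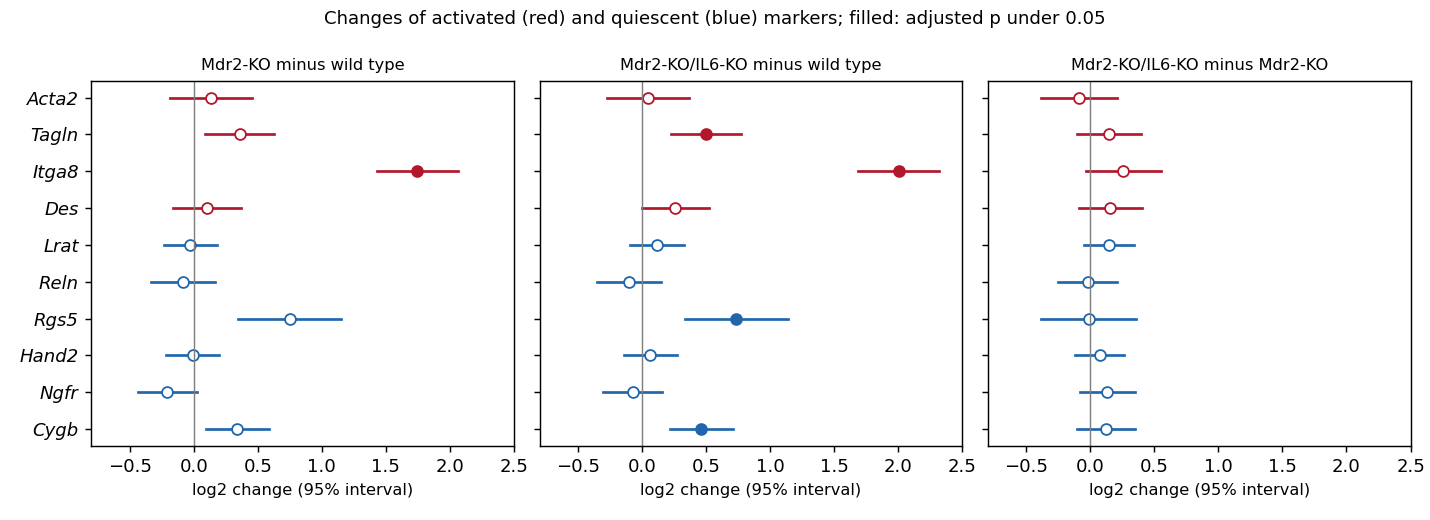
Log2 change (horizontal axis) of each marker with its 95% interval from the model of all 11 arrays, in 3 comparisons. Filled points have an adjusted p under 0.05: Itga8 in both comparisons with wild type, Tagln, Rgs5 and Cygb in Mdr2-KO/IL6-KO against wild type, and none between the knockout groups.

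Within the groups the markers did not vary as 1 block. After the mean of each group was taken out, Pearson r over the 11 arrays was above 0 for 22 of the 45 pairs of members, with a median of -0.03 and a range from -0.67 to 0.82. The highest was Itga8 with Cygb (0.82), followed by Hand2 with Ngfr (0.70) and Acta2 with Tagln (0.58). The lowest were Des with Hand2 (-0.67), Itga8 with Des (-0.66) and Reln with Rgs5 (-0.62). These r are descriptions over arrays that were scaled together.

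The genes most like 3 of the markers were listed among 9624 other genes brighter than the median gene, with group means taken out. For Itga8 they were Fbln2 (r = 0.91), Loxl1 (0.91), Ctdspl (0.88) and Ltbp1 (0.87), over 11 arrays. Fbln2 encodes the matrix protein fibulin 2, Loxl1 a lysyl oxidase of elastic fibres and Ltbp1 a protein that holds latent TGF-beta in the matrix. For Acta2 they were Itga4 (0.95), Cd300a (0.95), Itgal (0.94) and Spats2l (0.93), of which Itga4 and Itgal encode integrin subunits of white blood cells. For Lrat they were Cpd (0.96), Parp10 (0.95), Nat8f2 (0.94) and Snap47 (0.93). With group means left in, the closest to Itga8 were Rnf167 (0.98), Ccdc80 (0.97), Epb41l5 (0.97) and Bgn (0.97), an r that holds the gap between knockout and wild-type arrays. Those closest to Acta2 were Sting1 (0.87), Tacc2 (0.87), Arrb2 (0.83) and Pfkp (0.82), and those closest to Lrat were Mpp5 (0.92), Lcp1 (0.92), Zfp414 (0.92) and Abhd12 (0.91). All are the highest values of a search over 9624 genes.

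Other genes of the stellate lineage moved in both directions. Of 22 measured, 1 rose and 2 fell in Mdr2-KO, while 3 rose and 3 fell in Mdr2-KO/IL6-KO, both against wild type. Of all genes, 0.948% rose and 0.316% fell in Mdr2-KO, and 2.91% rose and 1.28% fell in Mdr2-KO/IL6-KO. At an unadjusted p under 0.05, in either direction, there were 7 and 10 of the 22, against 9.79% and 15.5% of all genes. The median change of the 22 was -0.06 and -0.08. Tcf21, 1 of the 3 that rose in Mdr2-KO/IL6-KO, is also among the transcription factors given next. Pdgfrb, the PDGF receptor of stellate cells, read 7.22, 7.43, 7.84 and 7.41 in Mdr2-KO/IL6-KO, 7.71, 7.08, 7.37 and 7.28 in Mdr2-KO, and 6.55, 6.73 and 6.65 in wild-type livers, so that every knockout array lay above wild type. It rose 1.78-fold in Mdr2-KO/IL6-KO (adjusted p = 0.00746) and 1.64-fold in Mdr2-KO (adjusted p = 0.0380). The Mdr2-KO call of Pdgfrb ended without any 1 of 8 arrays (replicate 2 or 4 of Mdr2-KO/IL6-KO, or replicate 1, 3 or 4 of Mdr2-KO, or replicate 1, 2 or 3 of wild type), with an adjusted p of up to 0.166, without wild-type replicate 1. It also ended with only the 2 groups compared (0.0630). The Mdr2-KO/IL6-KO call of Pdgfrb held without each of the 11 arrays in turn, and the minimum fold of 1.5 ended both calls.

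Adamtsl2, a secreted matrix protein, rose 1.67-fold in Mdr2-KO/IL6-KO against wild type (adjusted p = 0.0134; 0.0700 without wild-type replicate 2). Colec10, a collectin made by stellate cells, fell 1.65-fold in Mdr2-KO/IL6-KO (adjusted p = 0.0177) and 1.75-fold in Mdr2-KO (adjusted p = 0.0191). The Mdr2-KO/IL6-KO call of Colec10 ended without replicate 1 or 3 of Mdr2-KO/IL6-KO, or replicate 1 or 2 of wild type (adjusted p up to 0.0805), and its Mdr2-KO call without replicate 1 or 3 of Mdr2-KO, or replicate 1 or 2 of wild type (up to 0.0899), both highest without wild-type replicate 2. Hhip, which binds and restrains hedgehog ligands, fell 1.87-fold in Mdr2-KO (adjusted p = 0.0327). That call ended without replicate 1, 2 or 3 of Mdr2-KO/IL6-KO, or replicate 2 or 3 of Mdr2-KO, or replicate 1 or 2 of wild type (adjusted p up to 0.149, without wild-type replicate 2). The mean level of Hhip was low in both knockout groups, at 3.78 in Mdr2-KO/IL6-KO and 3.72 in Mdr2-KO, against 4.63 in wild-type livers. Its log2 change was -0.85 in Mdr2-KO/IL6-KO and -0.90 in Mdr2-KO, the largest falls among the 22 genes. Hhip was dimmer than the median gene. Bco1, which splits beta-carotene to retinal, fell 1.74-fold in Mdr2-KO/IL6-KO (adjusted p = 0.00604).

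Of 16 transcription factors of the stellate lineage 2 rose in Mdr2-KO, while 3 did so in Mdr2-KO/IL6-KO, both against wild type, and none fell, with a median change of 0.04 and 0.14. Of all genes, 0.948% and 2.91% rose. At an unadjusted p under 0.05 there were 5 and 6 of the 16, against 9.79% and 15.5% of all genes. Tcf21, a lineage factor of stellate cells, rose 1.65-fold in Mdr2-KO/IL6-KO (adjusted p = 0.0181), a call that ended without replicate 1 or 2 of Mdr2-KO/IL6-KO, or replicate 1 or 2 of wild type (up to 0.0794, without wild-type replicate 2). Tbx20, a T-box factor, rose 1.67-fold in Mdr2-KO/IL6-KO (adjusted p = 0.00572) and 1.63-fold in Mdr2-KO (adjusted p = 0.0162), where the call ended without replicate 1 of Mdr2-KO, or replicate 1 or 2 of wild type (up to 0.0840, without wild-type replicate 2). Klf6, a zinc finger factor raised early in stellate activation, rose 1.64-fold in Mdr2-KO/IL6-KO (adjusted p = 0.0185) and 1.61-fold in Mdr2-KO (adjusted p = 0.0487). The Mdr2-KO/IL6-KO call of Klf6 ended without replicate 1 or 3 of Mdr2-KO/IL6-KO, or replicate 2 or 3 of wild type (up to 0.0787), and its Mdr2-KO call without any 1 array but Mdr2-KO replicate 2 (up to 0.182), both highest without wild-type replicate 2. Hand2 did not pass.

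Some contractile genes passed where Acta2 did not. Of 22 contractile genes and regulators measured, 5 rose and none fell in Mdr2-KO/IL6-KO against wild type, with a median change of 0.10. There 2.91% of all genes rose, and 11 of the 22 had an unadjusted p under 0.05, against 15.5% of all genes. In Mdr2-KO against wild type limma called 0. At an unadjusted p under 0.05 there were 8 of 22, against 9.79% of all genes. Tpm1, a tropomyosin, read 7.44, 7.21, 7.51 and 7.19 in Mdr2-KO/IL6-KO, 6.81, 6.83, 7.31 and 7.24 in Mdr2-KO, and 6.57, 6.42 and 6.42 in wild-type livers. No knockout array of Tpm1 reached down to wild type, and it rose 1.82-fold in Mdr2-KO/IL6-KO (adjusted p = 0.00251), while in Mdr2-KO it missed the threshold (adjusted p = 0.0613). Vcl (vinculin) rose 1.41-fold (adjusted p = 0.00899), Mrtfb, a coactivator of serum response factor, 1.38-fold (0.0225) and Smtn (smoothelin) 1.29-fold (0.0315). The Vcl call ended without replicate 1 of wild type (adjusted p = 0.0519). That of Smtn ended without replicate 3 or 4 of Mdr2-KO/IL6-KO, or replicate 1 or 2 of wild type (up to 0.127, without wild-type replicate 1), and that of Mrtfb without replicate 1 or 3 of Mdr2-KO/IL6-KO, or replicate 1 or 3 of wild type (up to 0.117, without wild-type replicate 3).

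Some genes of retinoid metabolism passed where Lrat did not. Of 24 measured, 3 rose and 1 fell in Mdr2-KO/IL6-KO and 1 rose in Mdr2-KO, both against wild type, with a median change of 0.04 and 0.05. Of all genes, 2.91% rose and 1.28% fell in Mdr2-KO/IL6-KO, and 0.948% rose in Mdr2-KO. At an unadjusted p under 0.05 there were 11 and 5 of the 24, against 15.5% and 9.79% of all genes. Aldh1a2, which makes retinoic acid from retinal, read 5.43, 5.61, 5.63 and 5.20 in Mdr2-KO/IL6-KO, 5.31, 4.95, 5.52 and 5.53 in Mdr2-KO, and 4.26, 4.20 and 4.41 in wild-type livers. The knockout arrays all lay above the wild-type arrays, and Aldh1a2 rose 2.26-fold in Mdr2-KO/IL6-KO (adjusted p = 0.000575) and 2.06-fold in Mdr2-KO (adjusted p = 0.00324). No left-out array ended either Aldh1a2 call, but a test against a minimum fold of 1.5 ended both (adjusted p = 0.169 in Mdr2-KO/IL6-KO and 1 in Mdr2-KO). Rarb, a retinoic acid receptor that is itself induced by retinoic acid, rose 1.54-fold in Mdr2-KO/IL6-KO (adjusted p = 0.0157), and Dhrs3, which turns retinal back to retinol, rose 1.42-fold (0.0222). Rdh11, another retinal reductase, fell 1.84-fold (0.0104). The Rarb call ended without replicate 1 or 3 of wild type (adjusted p up to 0.0817, without wild-type replicate 3). That of Dhrs3 ended without replicate 1, 2 or 3 of Mdr2-KO/IL6-KO, or replicate 1 of wild type (up to 0.117, without wild-type replicate 1), and that of Rdh11 without replicate 2 of wild type (0.0548).

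The receptors and partners of 3 members were read as well. Among 7 measured neurotrophins and receptors, Ntrk2, the receptor of brain-derived neurotrophic factor, rose in both comparisons with wild type, while Ngfr did not pass. Ntrk2 read 6.17, 6.43, 6.45 and 6.50 in Mdr2-KO/IL6-KO, 6.19, 6.15, 6.54 and 6.04 in Mdr2-KO, and 4.69, 4.11 and 4.58 in wild-type livers. The knockout groups overlapped each other and lay wholly above wild type, by 3.81-fold in Mdr2-KO/IL6-KO (adjusted p = 1.21e-05) and 3.41-fold in Mdr2-KO (adjusted p = 4.57e-05). Of all genes, 2.91% and 0.948% rose in these comparisons. Of 12 partners and ligands of the alpha8 beta1 integrin and related integrins, 1 rose in Mdr2-KO/IL6-KO against wild type. This was Itgav, the alphav integrin subunit (1.28-fold, adjusted p = 0.0351). Its call ended without replicate 1, 2 or 3 of Mdr2-KO/IL6-KO, or replicate 4 of Mdr2-KO, or replicate 1, 2 or 3 of wild type (up to 0.167, without wild-type replicate 3). In Mdr2-KO/IL6-KO against wild type 4 of the 12 had an unadjusted p under 0.05, against 15.5% of all genes. In Mdr2-KO against wild type 0 of the 12 passed in limma and 2 had an unadjusted p under 0.05, against 9.79% of all genes. Of 5 reelin receptors and adaptors limma called 0 in any comparison. The lowest p was that of Dab2 (log2 change 0.39 in Mdr2-KO/IL6-KO against wild type, adjusted p = 0.104). There 1 of 5 had an unadjusted p under 0.05, against 15.5% of all genes, and 0 did in the other comparisons.

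Between the 2 knockout groups no gene of these 7 lists passed in limma. At an unadjusted p under 0.05 there were 1 of 22 stellate lineage genes, 2 of 22 contractile genes, 2 of 24 retinoid genes and 1 of 16 transcription factors, and 0 of the integrin, neurotrophin and reelin lists. Of all genes, 4.82% reached this in the same comparison.

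**Figure D3:**
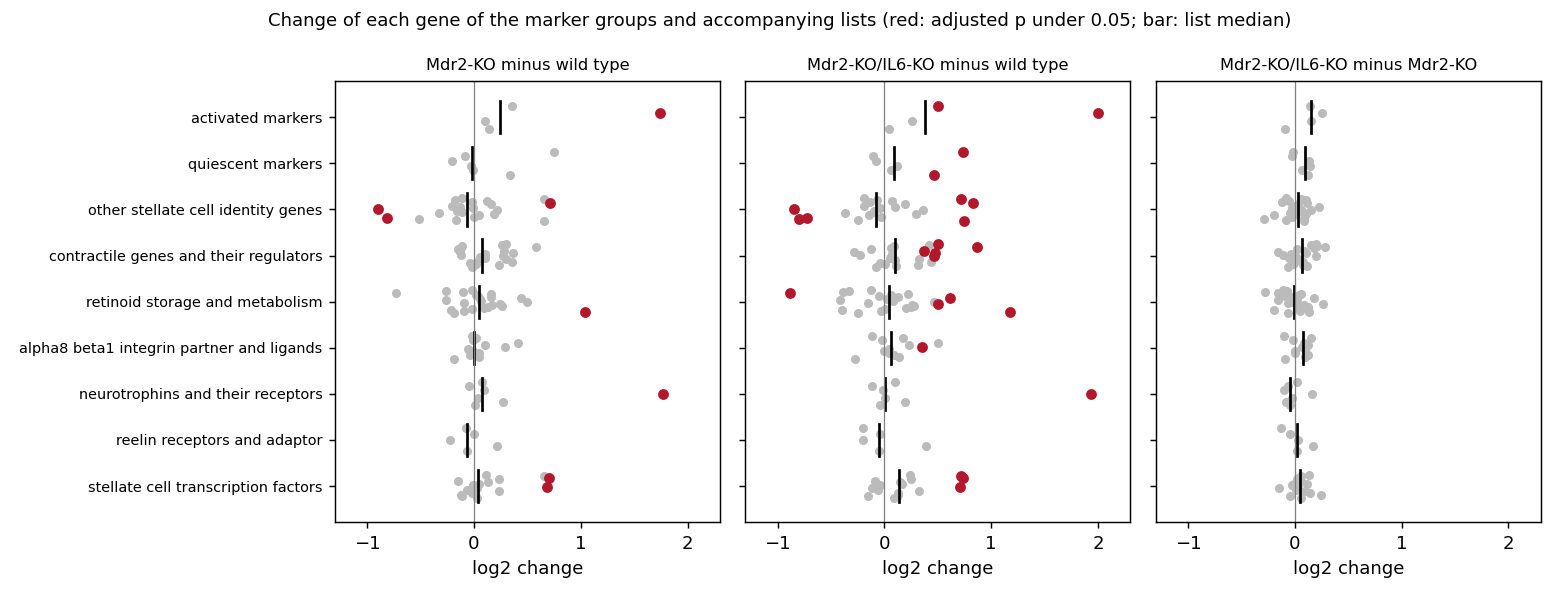
Log2 change (horizontal axis) of each gene of the marker groups and of 7 accompanying lists (rows) in 3 comparisons. Red points have an adjusted p under 0.05 and bars are list medians, which lie between -0.08 and 0.38; red points are absent in Mdr2-KO/IL6-KO minus Mdr2-KO.

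**Figure D4:**
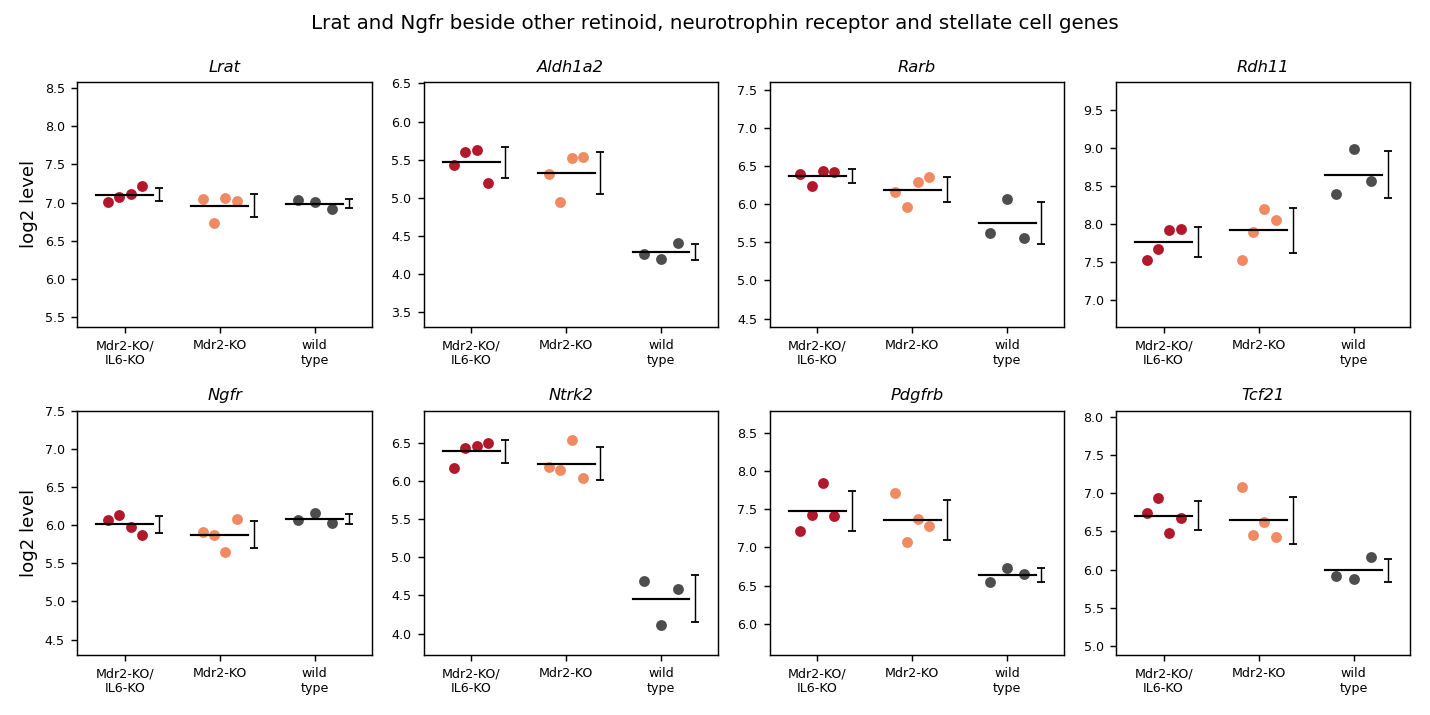
Log2 level (vertical axis, 3.2 log2 units in every panel) by array of Lrat beside Aldh1a2, Rarb and Rdh11, and of Ngfr beside Ntrk2, Pdgfrb and Tcf21. Points are arrays, lines are group means and bars are 1 SD; Ntrk2 spans 6.04 to 6.54 in knockout and 4.11 to 4.69 in wild-type livers, while Ngfr spans 5.64 to 6.16 over all 11 arrays.

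Markers of other cells that could carry these genes were read on the same arrays, as the mean log2 level of each list. Vascular smooth muscle and pericyte markers, 13 genes that share no gene with the members, ranged from 5.07 to 5.22 in Mdr2-KO/IL6-KO, 5.04 to 5.26 in Mdr2-KO and 5.06 to 5.18 in wild-type livers. Limma called 0 of the 13 in either comparison with wild type. At an unadjusted p under 0.05 there were 2 (Mdr2-KO/IL6-KO) and 1 (Mdr2-KO), against 15.5% and 9.79% of all genes. The lowest p was that of Mcam (log2 change 0.28 in Mdr2-KO/IL6-KO, adjusted p = 0.174). Markers of skeletal muscle, which also expresses Des, ranged from 4.48 to 4.68, 4.28 to 4.73 and 4.52 to 4.68 in the same order. None of these 10 passed in limma or reached an unadjusted p under 0.05, and the lowest p was that of Mylpf (adjusted p = 0.579).

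Bile duct cell markers, like Itga8, stood higher in both knockout groups than in wild type. Their mean level was 6.05 to 6.38 in Mdr2-KO/IL6-KO, 6.04 to 6.33 in Mdr2-KO and 5.17 to 5.29 in wild-type livers, and 7 of 10 measured rose in each comparison with wild type. In Mdr2-KO/IL6-KO these included Tspan8 (4.54-fold, adjusted p = 1.88e-05), Epcam (2.56-fold, 0.000321), Bicc1 (1.97-fold, 0.000466) and Cd24a (2.82-fold, 0.000772). Of all genes, 2.91% rose in Mdr2-KO/IL6-KO and 0.948% in Mdr2-KO. Portal fibroblast markers ranged from 5.47 to 5.70 in Mdr2-KO/IL6-KO, 5.41 to 5.60 in Mdr2-KO and 5.30 to 5.40 in wild-type livers. Of 12, 2 rose in Mdr2-KO/IL6-KO and 1 in Mdr2-KO, both against wild type, where 2.91% and 0.948% of all genes rose. At an unadjusted p under 0.05, in either direction, there were 6 and 5 of the 12, against 15.5% and 9.79% of all genes. Cd34, also a marker of blood vessels, rose 2.67-fold in Mdr2-KO/IL6-KO (adjusted p = 3.12e-05) and 2.42-fold in Mdr2-KO (0.000143). Eln, the elastin gene, rose 1.39-fold in Mdr2-KO/IL6-KO (0.0333), a call that ended without replicate 2 or 3 of Mdr2-KO/IL6-KO, or replicate 1, 2 or 3 of wild type (up to 0.123, without wild-type replicate 3). Thy1, Entpd2 and Gli1, widely used markers in that list, did not pass, with log2 changes in Mdr2-KO/IL6-KO of 0.0010, 0.43 and -0.01. Every knockout array of Entpd2 nonetheless lay above every wild-type array. Whether cells of these types had a part in the changes of the 10 members was not tested.

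Mesothelial markers ranged from 5.71 to 5.83, 5.39 to 5.78 and 5.46 to 5.58 in the same order, and 1 of 8 rose in Mdr2-KO/IL6-KO against wild type, Krt8 (1.85-fold, adjusted p = 0.00439), which hepatocytes and bile duct cells also express. Schwann cell and nerve markers ranged from 5.16 to 5.34, 5.14 to 5.39 and 5.13 to 5.28, and 1 of 7 rose there, Ncam1 (1.40-fold, 0.0239). Its call ended without replicate 1, 2 or 3 of Mdr2-KO/IL6-KO, or replicate 1 or 2 of wild type (up to 0.115, without wild-type replicate 2). Endothelial markers ranged from 7.18 to 7.30, 7.07 to 7.23 and 6.86 to 7.14, and 2 of 12 rose there, Lyve1 (1.58-fold, 0.0357) and Stab1 (1.29-fold, 0.0419). The Lyve1 call ended without replicate 1, 2 or 3 of Mdr2-KO/IL6-KO, or replicate 4 of Mdr2-KO, or replicate 1 or 3 of wild type (up to 0.156, without wild-type replicate 1), and that of Stab1 without replicate 1, 2 or 3 of Mdr2-KO/IL6-KO, or replicate 1 or 4 of Mdr2-KO, or replicate 1, 2 or 3 of wild type (up to 0.156, without wild-type replicate 2). Hepatocyte markers ranged from 12.06 to 12.18, 12.10 to 12.23 and 12.21 to 12.22, and 1 of 11 fell there, Fgb (1.47-fold, 0.00137). In Mdr2-KO/IL6-KO against wild type limma called 2.91% of all genes upward and 1.28% downward. In Mdr2-KO against wild type it called 0 in each of these 4 lists. At an unadjusted p under 0.05 there were 2, 1, 2 and 2 in Mdr2-KO, against 9.79% of all genes. In Mdr2-KO/IL6-KO there were 4 of 8, 1 of 7, 4 of 12 and 5 of 11, against 15.5% of all genes. Between the knockout groups limma called 0 in each of the 8 lists of other cells. Between 0 and 2 genes of each had an unadjusted p under 0.05, against 4.82% of all genes.

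**Figure D5:**
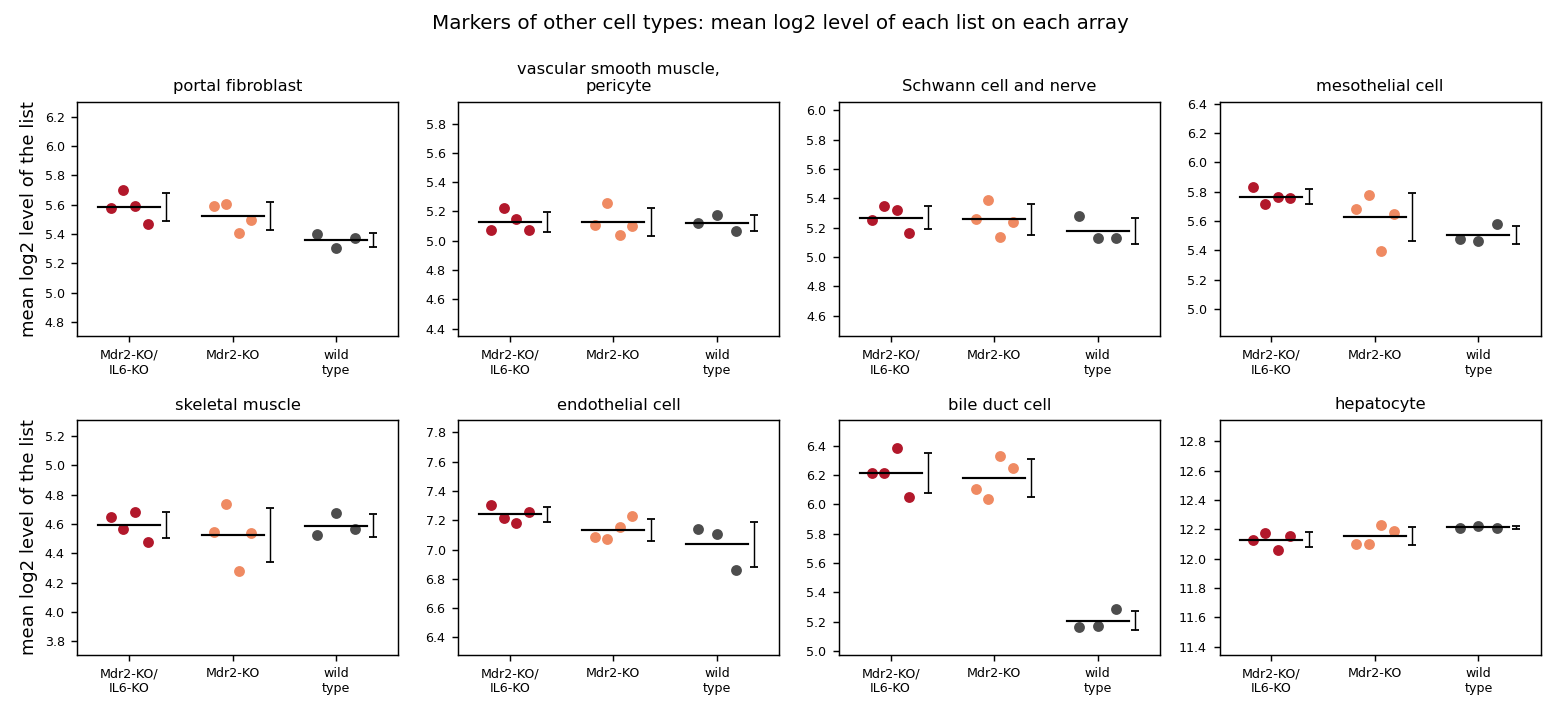
Mean log2 level (vertical axis, 1.6 log2 units in every panel) of 8 lists of markers of other cell types on each array of Mdr2-KO/IL6-KO, Mdr2-KO and wild-type livers. Points are arrays, lines are group means and bars are 1 SD; the bile duct list lies at 6.04 or above in knockout and at 5.29 or below in wild-type livers, and the vascular smooth muscle list lies between 5.04 and 5.26 throughout.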

How the data were processed

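Total RNA of snap-frozen liver was hybridized to Affymetrix arrays, 1 per sample, after conversion to biotinylated cRNA, per the labels' protocols. The authors deposited log2 levels for 35557 probe sets on 11 arrays, which the submitters' processing notes trace to RMA and Partek; versions are not given in the sources used here. Array medians lay between 5.09 and 5.23, and the values were used as deposited.

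Probe sets with 1 gene symbol (21789) were named from the platform annotation, with symbols updated by Entrez identifier against RefSeq GRCm38.p6. The probe set with the highest mean stood for each of 19938 genes. A limma 3.58.1 model (R 4.3.3) with a mean per group gave 3 contrasts, two-sided, with eBayes and Benjamini-Hochberg adjustment over all genes, called at an adjusted p under 0.05, with no filter on dim genes. Errors are the SE of that model or the SD over arrays, and intervals are at 95%. No label states that each array is 1 mouse, so the spread behind each p-value may be technical, and the number of arrays limits the precision. The script was tested on simulated data. Alternatives were averaging over probe sets of 1 gene, genes brighter than the median only, quantile or median scaling, trend and robust moderation, the 2 groups alone, a minimum fold of 1.5 and each array left out.

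The members and lists were chosen with earlier results of these data known. Besides the members, up to 4 called genes per list and comparison were named by lowest p, or else the 1 with the lowest p. Thy1, Entpd2 and Gli1 were named outside this rule. No probe set was assigned to 15 of 216 list entries. Wild-type titles carry another prefix than knockout titles, and what it stands for cannot be told apart from genotype. Replicate numbers follow sample order.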

Additional observations from a re-analysis of the deposited data

Results flagged for a closer look

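Among 43 named genes, tested in both groups of 4 arrays (86 tests, of which chance flags about 1 in 20), 2 had an array far from the rest by Dixon's ratio. Lrat read 6.73 on Mdr2-KO replicate 2, where the nearest of the other Mdr2-KO arrays read 7.02. Without that array the change of Lrat in Mdr2-KO against wild type was 0.05. Mylpf, a skeletal muscle myosin light chain, read 4.84 on Mdr2-KO/IL6-KO replicate 1, where the nearest of the other arrays of that group read 4.66. The wild-type group, with 3 arrays, was not tested in this way.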

How the results depend on the processing

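Results were recomputed in 19 alternatives, 1 of them chosen after seeing the data, or in 18 for Des, Aldh1a2, Hhip and Ncam1, which have no value among genes brighter than the median. The Itga8 calls in both comparisons with wild type held in all 19, and no member passed between the knockout groups in any. No called member changed sign. In Mdr2-KO/IL6-KO against wild type, 2 quiescent markers were called; quantile normalization left 1 (Cygb lost), median centring 1 (Rgs5 lost), a minimum fold of 1.5 left 0, and leaving out 1 array gave 0 to 2. The 2 activated markers called there became 1 with the minimum fold and 1 to 2 with 1 array left out. In Mdr2-KO against wild type the 0 quiescent markers called became 1 (Rgs5) without Mdr2-KO replicates 2 and 3 together, the setting chosen later, and 0 to 1 with 1 array left out.

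Over all genes, 252 were called in Mdr2-KO against wild type. These became 138 with only the 2 groups compared, 15 with a minimum fold of 1.5 and 148 to 323 with 1 array left out. In Mdr2-KO/IL6-KO against wild type 836 became 51 with the minimum fold and 464 to 989 with 1 array left out. Between the knockout groups 1 call became 4 among genes brighter than the median, 2 with median centring, 2 with trend and robust moderation, 2 without Mdr2-KO replicates 2 and 3, and 1 to 5 with 1 array left out. The cause of these shifts was not tested, except that the minimum fold admits only larger changes and fewer arrays or genes enter some fits. Averaging probe sets left each member's level as it was, since each has 1, and changed no member's call. Among the named genes, the calls that held with the minimum fold were those of Itga8, Ntrk2 and Tspan8 in both comparisons with wild type, and of Cd34 and Epcam in Mdr2-KO/IL6-KO. No paired analysis was possible because the labels give no replicate numbers and those used follow sample order. Signal over background was not used here, so that precision at low levels is known from the arrays' spread alone.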
